A study of Mus musculus with 11 samples.

Results

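The genes described here are 8 that encode proteins of the basement membrane and its nearby matrix: Lama1, Lama5, Lamb1, Lamc1, Col4a1, Col4a2, Sparc and Fn1. They were chosen by name. Lama1 headed the choice because its exon reads were lower in the libraries labelled siZC3H4 in earlier results of these data, so its exon difference is given as a description with no test. All 8 were among the 13088 genes of the exon table, and none of the listed genes lacked a row there. Of the 5867 upstream antisense RNA regions of the second table, 3 belonged to these genes, those of Lama5, Lamb1 and Lamc1. Lama1, Col4a1, Col4a2, Sparc and Fn1 had no row in that table.

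The cells were wild-type F121-9 mouse embryonic stem cells (female, CAST/129 hybrid background), an established line grown on gelatin in serum-free medium with LIF and inhibitors of MEK and GSK3. One group received 30 nM of the siRNA labelled siNT, the control of the deposited comparison (3 libraries, replicates 1, 2 and 3), and the other 30 nM of the siRNA labelled siZC3H4 (2 libraries, replicates 2 and 3). ZC3H4 is a subunit of the Restrictor complex, which attenuates early transcription. Both groups were exposed to 500 µM 4-thiouridine for 20 minutes and collected 47 hours after transfection, and the RNA that had taken it up was fragmented, biotinylated, pulled down and sequenced (TT-seq). All values are therefore of newly made RNA and not of mature mRNA or protein. The labels do not state whether replicates were separate cultures, and p-values then measure only the spread between these samples. The DMSO and dTAG-13 samples of the series are not analysed here.

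The basement membrane is a thin sheet of matrix under epithelia. Each laminin molecule joins an alpha, a beta and a gamma chain. Laminins polymerise on the cell surface, where integrins and dystroglycan bind them. Collagen IV forms a second network, which nidogens and the proteoglycan perlecan tie to the laminin sheet. In the early embryo laminin and collagen IV are laid down between the pluripotent epiblast and the primitive endoderm, and endoderm derivatives secrete them in large amounts. Fibronectin binds cells through its own integrins, and SPARC is a matrix glycoprotein that binds collagen.

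Values are reads divided by the depth factor of each library, called normalised reads below. Exon reads before that division totalled 14840637 to 26548710 per library and upstream antisense reads 996927 to 2648683. The siRNA target itself, Zc3h4, held 3465, 3610 and 3363 normalised exon reads under siNT against 7285 and 6718, a rise (log2 1.01 ± 0.11 SE, limma adjusted p = 0.00431) where the label would give less mature mRNA. Nascent reads do not settle whether the label is right, so the group is called the libraries labelled siZC3H4 throughout. The stem cell label was borne by 8 of 8 pluripotency markers in the exon table, whose summed normalised reads were 89522 to 106425 in siNT and 75986 to 92314 in the libraries labelled siZC3H4. Of 10 primitive endoderm markers 5 had a row, and Sox17, Foxa2, Hnf4a, Cubn and Amn had none. The 5 summed to 156 to 255 normalised reads in siNT and 275 to 293 in the libraries labelled siZC3H4. Of the 5, 0 had a limma adjusted p under 0.05, and the groups overlapped for all but Pdgfra. Of 9 fibroblast or feeder markers only Thy1 had a row, with 81.0 to 135 and 76.5 to 99.0 normalised reads. The part of such cells in the results below was not tested.

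Levels of the 8 genes were set in order in the siNT libraries as normalised exon reads per kb of the transcript length given in the table. Fn1, the fibronectin gene, was the highest at 3737 ± 336 reads per kb (SD, n = 3), above 97.7% of the 12482 genes with a mean of 10 or more normalised reads over the 5 libraries. Lamc1 followed at 838 ± 90.6 and Lama1 at 831 ± 80.1, and these did not differ beyond their spread. Sparc stood at 595 ± 74.8 and Lama5 at 514 ± 133, again with overlapping ranges. Lamb1 was lower, at 244 ± 53.1 reads per kb, near the middle of all genes (above 56.1% of them). The collagen IV genes were the lowest, Col4a1 at 79.0 ± 11.2 and Col4a2 at 32.3 ± 8.68, which is above 29.0% and 15.1% of genes. Apart from the pairs Lamc1 and Lama1, and Sparc and Lama5, the ranges of neighbours in this order did not overlap.

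**Figure D1:**
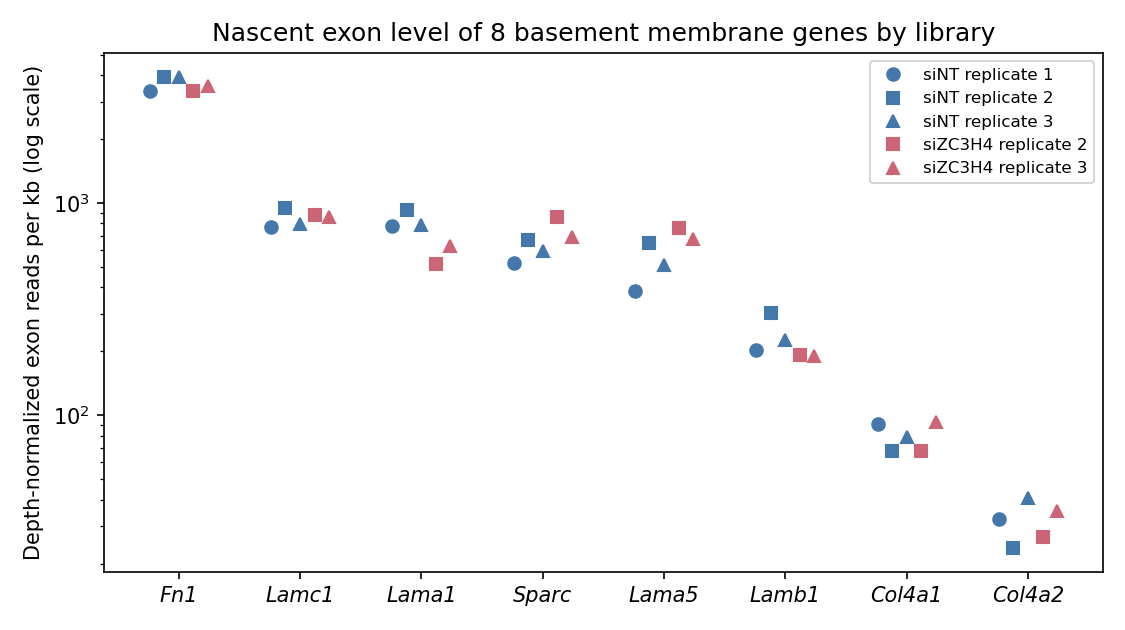
Normalised exon reads per kb of transcript (log axis) of each gene in the 3 siNT libraries (blue) and the 2 libraries labelled siZC3H4 (red). Points are single libraries, with the marker giving the replicate number. Fn1 lies far above the rest and Col4a2 lowest, and the red points lie below every blue point for Lama1 and Lamb1 and above every blue point for Lama5 and Sparc.

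Lama1 encodes the alpha chain of the laminin of the early embryo's first basement membranes (ENSMUSG00000032796, chromosome 17, 67697265 to 67822647, plus strand, mm10). It had 7419, 8789 and 7522 normalised exon reads in siNT replicates 1, 2 and 3 and 4934 and 5954 in replicates 2 and 3 labelled siZC3H4. Both libraries labelled siZC3H4 lay below every siNT library, as held for 12.8% of all genes tested. The means were 7910 ± 763 (SD, n = 3) and 5444 ± 721 (SD, n = 2), a log2 difference of -0.54 ± 0.13 SE or 0.687-fold, and 2.69% of the genes tested lay lower on that scale. The difference was between -0.68 and -0.41 whichever library was left out. All these values hold the contrast by which Lama1 was chosen, so they describe it and do not test it. In such bulk samples fewer cells of a type and less new RNA per cell cannot be told apart. Its siNT spread was ordinary, with an SD of 0.14 on the log2 scale that was above that of 33.4% of genes.

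Lama5, the alpha chain gene of most later epithelial basement membranes, took the other direction in these libraries. The gene lies on chromosome 2 from 180176373 to 180225797 on the minus strand (ENSMUSG00000015647). Its normalised exon reads were 4340, 7352 and 5788 in siNT and 8661 and 7689 in the libraries labelled siZC3H4, so the groups did not overlap. siNT replicate 1 was low, and the siNT SD of 0.38 on the log2 scale was above that of 85.3% of genes. The log2 difference of 0.52 ± 0.20 SE (95% interval 0.08 to 0.96) did not pass the test over all genes (limma adjusted p = 0.243), and was 0.32 without siNT replicate 1 and 0.70 without siNT replicate 2.

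Lamb1 encodes the beta chain that partners both alpha chains (ENSMUSG00000002900, chromosome 12, 31265300 to 31329639, plus strand). It had 1168, 1752 and 1299 normalised exon reads in siNT and 1106 and 1092 in the libraries labelled siZC3H4. The last 2 values lay close together and just below the lowest siNT library, while siNT replicate 2 stood well above the others. The log2 difference was -0.33 ± 0.17 SE (95% interval -0.73 to 0.06) and did not pass the test (limma adjusted p = 0.421). It was -0.16 without siNT replicate 2.

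Lamc1, the gamma chain gene shared by most laminins, lies on chromosome 1 from 153218922 to 153332746 on the minus strand (ENSMUSG00000026478). Its normalised exon reads were 5870, 7142 and 6056 in siNT against 6681 and 6498, inside the siNT range. The log2 difference of 0.06 ± 0.12 SE had a 95% interval of -0.22 to 0.33 (limma adjusted p = 0.905).

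The chains were then set against each other within each library, where the depth factor cancels. Of the summed reads per kb of Lama1 and Lama5, Lama1 made up 67.0%, 58.7% and 60.7% in siNT and 40.4% and 48.0% in the libraries labelled siZC3H4. Lama1 thus had the larger share in every siNT library and the smaller one in both of the others, a description that holds the contrast by which Lama1 was chosen. The sum of the 2 alpha chain genes ran from 1163 to 1572 reads per kb in siNT and was 1283 and 1304 in the others, inside that range. The ratio of Lama5 to Lamc1, which does not involve Lama1, was 0.495, 0.689 and 0.640 in siNT. It was 0.868 and 0.792 in the libraries labelled siZC3H4, and did not overlap. Lama5 reads alone did not overlap either, as held for 32.3% of all genes in either direction, and Lamc1 differed little (log2 0.06). How often ratios of other gene pairs do the same was not worked out. Lamb1 had 0.261, 0.322 and 0.282 of the Lamc1 level in siNT and 0.217 and 0.221 in the others.

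**Figure D2:**
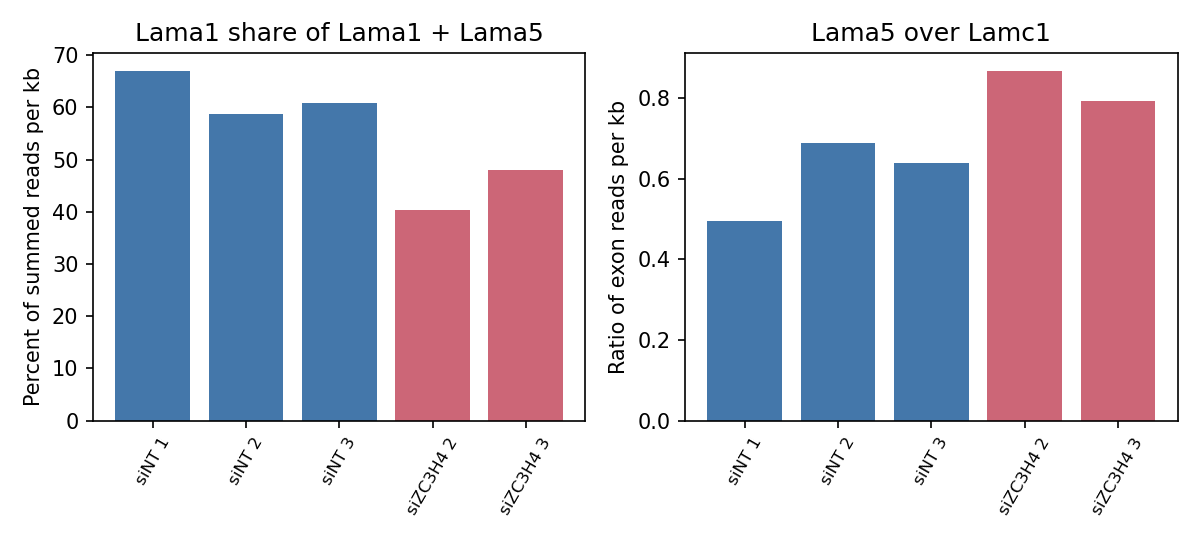
Left, share of Lama1 in the summed exon reads per kb of Lama1 and Lama5, in percent; right, ratio of Lama5 to Lamc1 exon reads per kb; bars are single libraries, siNT in blue and those labelled siZC3H4 in red. The Lama1 share was 58.7% to 67.0% in siNT and 40.4% and 48.0% in the others, and the Lama5 to Lamc1 ratio was higher in both red bars than in every blue one.

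Col4a1 and Col4a2 encode the chains of the main collagen IV molecule. They lie head to head on chromosome 8, Col4a1 from 11198423 to 11312749 on the minus strand (ENSMUSG00000031502) and Col4a2 from 11312878 to 11449287 on the plus strand (ENSMUSG00000031503), with their starts 129 bases apart. Transcription away from either start therefore runs into the other gene. Neither had a row in the upstream antisense table, as was so for Lama1, Sparc and Fn1, and the reason was not tested. The 128 bases between the starts are shown because both genes are read from them. They are from RefSeq's GRCm38.p6 promoter windows, chr8:11312750-11312877, plus strand. RefSeq's own starts, 11312826 for Col4a1 and 11312805 for Col4a2, lie inside this stretch. By those starts the genes overlap, and the whole stretch is transcribed as part of 1 gene or both. Capitals mark matches on either strand to the GC box GGGCGG and the CCAAT box.
Col4a1 to Col4a2: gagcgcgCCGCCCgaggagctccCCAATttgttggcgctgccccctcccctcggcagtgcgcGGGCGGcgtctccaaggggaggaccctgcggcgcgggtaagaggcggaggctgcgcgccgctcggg
The stretch is 76.6% G or C and holds 18 CpG, 2 matches to the GC box and 1 to the CCAAT box, which do not overlap each other.

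The difference between the groups was smaller than the spread between replicates for both collagen genes. Col4a1 had 591, 445 and 514 normalised exon reads in siNT and 441 and 609 in the libraries labelled siZC3H4. Col4a2 had 207, 150 and 261 against 170 and 225. The groups overlapped for both genes, and in each group the library numbered 2 was the lowest. The log2 differences were 0.01 ± 0.19 SE for Col4a1 (95% interval -0.41 to 0.44) and -0.04 ± 0.26 SE for Col4a2 (-0.62 to 0.54), with limma adjusted p of 0.987 and 0.971. The sign of each depended on single libraries, and that of Col4a1 also on the scaling (log2 -0.026 with the median of ratios and -0.013 with TMM): Col4a1 was at -0.22 without siZC3H4 replicate 3 and Col4a2 at 0.16 without siZC3H4 replicate 2. Per kb, Col4a1 had 2.78, 2.89 and 1.92 times the reads of Col4a2 in siNT and 2.54 and 2.64 times in the others.

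Sparc, on chromosome 11 from 55394500 to 55419849 on the minus strand (ENSMUSG00000018593), had 1078, 1387 and 1224 normalised exon reads in siNT and 1770 and 1421 in the libraries labelled siZC3H4. The highest siNT library, replicate 2, lay just under the lower of the others, so the groups did not overlap. The log2 difference of 0.37 ± 0.15 SE (95% interval 0.03 to 0.72) did not pass the test (limma adjusted p = 0.287), and was 0.22 without siZC3H4 replicate 2.

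Fn1, on chromosome 1 from 71585524 to 71653170 on the minus strand (ENSMUSG00000026193), had 27836, 32718 and 32615 normalised exon reads in siNT and 27946 and 29681 in the others. Both fell inside the siNT range, with a log2 difference of -0.10 ± 0.12 SE (95% interval -0.38 to 0.17, limma adjusted p = 0.789).

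Without Lama1, 0 of the 7 genes passed the limma threshold of 0.05 in exon reads, where 2.36% of all genes tested did. Unadjusted p-values were under 0.05 for 2 of them in limma, Lama5 and Sparc, and 0 passed with edgeR (2 with an unadjusted p under 0.05) or DESeq2 on the recovered reads. The share of all genes with an unadjusted p under 0.05 was not worked out. Groups did not overlap for 3 of the 7, 2 higher and 1 lower in the libraries labelled siZC3H4, where 32.3% of all genes did not overlap in either direction. The counts past the adjusted threshold and without overlap are close to those of all genes. The median log2 difference of the 7 was 0.01, as was that of all genes tested. The members did not move together: of the 7, 4 lay above 0 and 3 below, with Col4a1 turning below 0 under both other scalings. Within siNT, replicate 2 was the highest library for 6 of the 8 genes and the lowest for the 2 collagen genes, while replicate 2 was the highest for 32.5% of all genes.

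**Figure D3:**
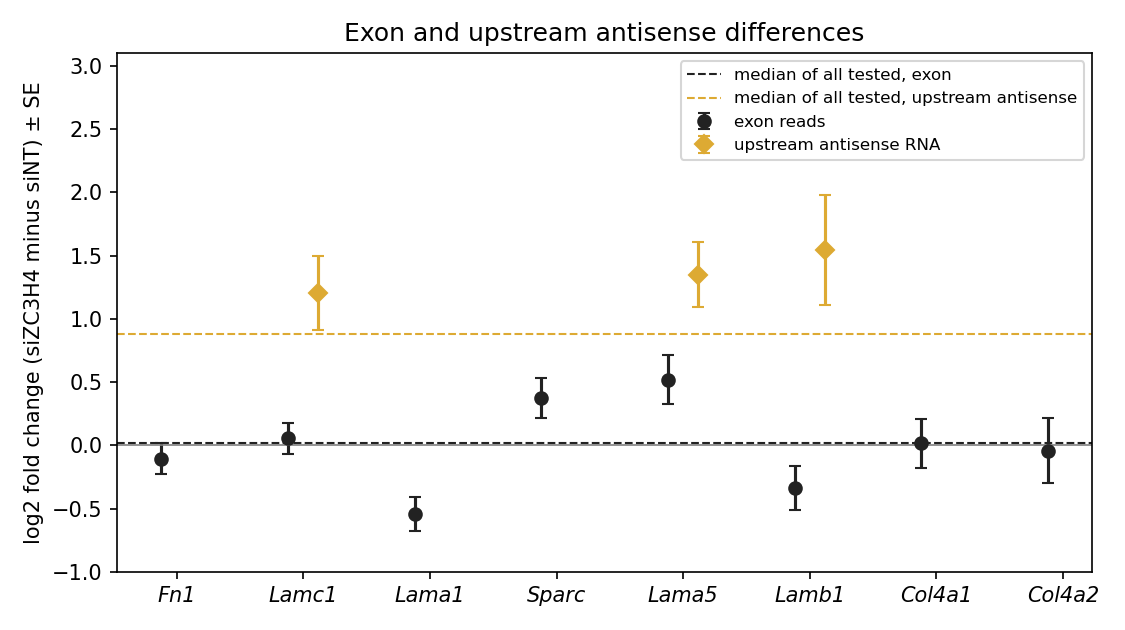
Log2 fold change, libraries labelled siZC3H4 minus siNT, with limma's SE as bars, for exon reads (black circles, 8 genes) and upstream antisense RNA (yellow diamonds, 3 genes). Dashed lines are the medians of all features tested in each table. Exon values lie between -0.54 for Lama1 and 0.52 for Lama5 around a median of 0.01, and the 3 antisense values lie above their median of 0.88.

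Upstream antisense RNAs (uaRNAs) are short-lived transcripts that leave a promoter in the direction opposite to the gene. Their rows were not used to choose the genes. Of the 3 with a row, all from laminin genes, all 3 passed the filter of a mean of 10 and 3 of 3 rose, where 62.1% of the 5124 uaRNAs tested rose. For all 3 the lower library labelled siZC3H4 exceeded the highest siNT library, as did 73.7% of all uaRNAs. Most uaRNAs of the table therefore did the same, and a count of 3 does not set the laminin genes apart.

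The Lama5 uaRNA had 117, 104 and 103 normalised reads in siNT and 315 and 243 in the libraries labelled siZC3H4, from 117 to 557 reads before division. The siNT libraries lay within each other's counting error and both others stood above the upper end of their exact Poisson 95% intervals, which reached 140. The rise was 2.55-fold (log2 1.35 ± 0.26 SE, with an adjusted p of 1.1e-05 in limma). The Lamc1 uaRNA had 45.0, 51.3 and 65.7 against 134 and 115 normalised reads, and rose 2.30-fold (log2 1.20 ± 0.29 SE, limma adjusted p = 4.2e-04). Both calls held whichever single library was dropped.

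The Lamb1 uaRNA was the thinnest of the 3, with 17, 13 and 10 reads before division in siNT, or 17.0, 11.3 and 8.53 normalised reads. The libraries labelled siZC3H4 had 59.99 and 22.0. Replicate 2 lay far above replicate 3, and the Poisson interval of replicate 3 (13.9 to 33.0) overlapped those of siNT replicates 1, 2 and 3 (up to 27.2, 19.3 and 15.7). It rose 2.92-fold (log2 1.55 ± 0.43 SE, limma adjusted p = 0.0019), and without siZC3H4 replicate 2 it was at log2 0.84 and no longer passed (limma adjusted p = 0.248). Intervals cover counting error only. Moderated tests of uaRNAs had 67.5 degrees of freedom, so their p-values rest largely on the spread borrowed from all uaRNAs.

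**Figure D4:**
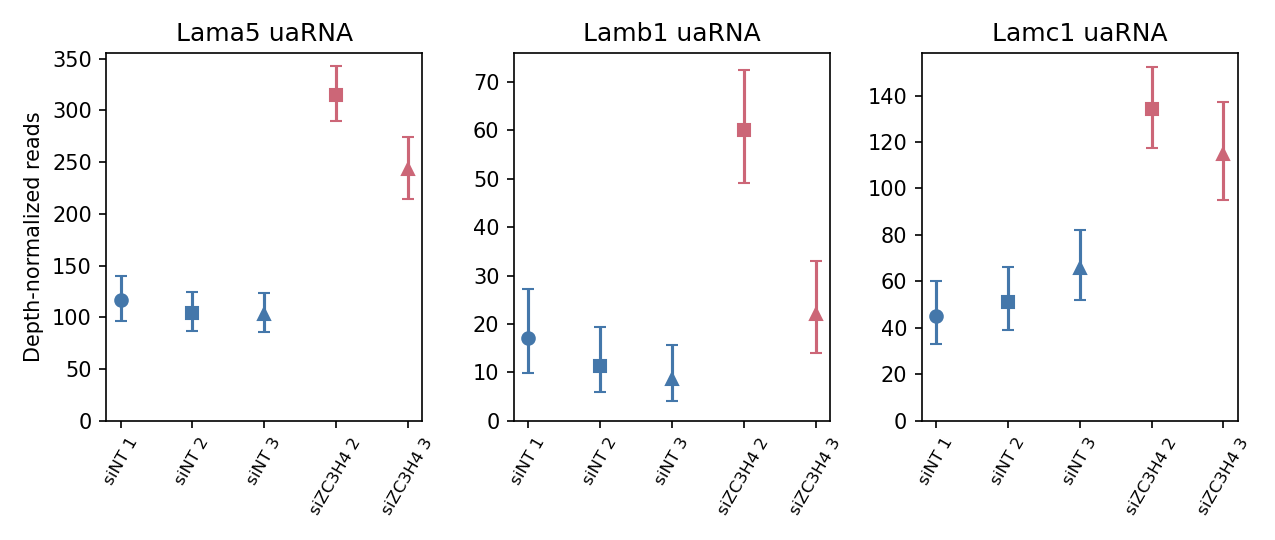
Normalised reads of the 3 upstream antisense RNAs in each library, siNT in blue and libraries labelled siZC3H4 in red, with exact Poisson 95% intervals as bars, each panel with its own linear axis from 0. For Lama5 and Lamc1 both red points lie above all blue intervals, and for Lamb1 replicate 3 at 22.0 lies within the interval of siNT replicate 1.

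All 3 calls rest on the depth factors of the authors, under which the median of all uaRNAs tested was at log2 0.88. With median-of-ratios factors taken from the uaRNA table alone, which moved that median to 0.0077, the log2 values were 0.46 for Lama5, 0.70 for Lamb1 and 0.32 for Lamc1 and 0 of 3 passed (adjusted p of 0.114, 0.262 and 0.372). That scaling measures each uaRNA against the other uaRNAs.

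The uaRNA table gives no coordinates. In the 1 kb before the gene start RefSeq has the lncRNA Gm52542 at Lama5 and the lncRNA Gm32899 at Lamb1, and no other gene at Lamc1, so reads of the first pair can include those RNAs. The 250 bases before the RefSeq starts of Lama5 and Lamb1 are shown. Where the antisense RNAs start is not given, so whether these windows hold those starts is not known. They are from RefSeq (GRCm38.p6), chr2:180225860-180226109 on the minus strand and chr12:31265043-31265292 on the plus strand, each 5′ to 3′ towards the gene. Capitals mark the GC box GGGCGG and the CCAAT box on either strand.
Lama5: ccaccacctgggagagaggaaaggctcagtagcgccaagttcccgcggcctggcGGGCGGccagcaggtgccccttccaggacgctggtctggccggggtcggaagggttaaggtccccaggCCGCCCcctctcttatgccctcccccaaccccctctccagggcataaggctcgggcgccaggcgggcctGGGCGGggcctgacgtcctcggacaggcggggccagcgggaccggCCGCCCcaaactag
Lamb1: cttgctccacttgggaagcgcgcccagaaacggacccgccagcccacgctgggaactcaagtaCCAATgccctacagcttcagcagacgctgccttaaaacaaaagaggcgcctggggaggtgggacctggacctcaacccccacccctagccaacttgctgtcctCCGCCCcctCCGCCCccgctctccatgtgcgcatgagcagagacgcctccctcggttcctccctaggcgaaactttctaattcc
Lama5 has 4 GC box matches and no CCAAT match, and Lamb1 has 2 and 1. Of 32851 RefSeq windows of the same length, 32.7% hold the GC box and 33.8% the CCAAT box. The Lama5 window is 72.4% G or C with 19 CpG and that of Lamb1 62.0% with 14, against medians of 52.4% and 6. Neither window holds TATAAA, the splice donor letters GTAAGT or AATAAA on either strand, which says only that these letters are not in these windows. RefSeq's starts lie 62 bases (Lama5) and 7 bases (Lamb1) from those of the exon table. Of the 8 genes, 5 had a RefSeq promoter in the table used.

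Each uaRNA was then compared with the exon reads of its own gene within each library, so that the depth factor cancels. uaRNA reads of Lama5 were 2.70%, 1.42% and 1.78% of its exon reads in siNT and 3.64% and 3.16% in the libraries labelled siZC3H4. For Lamc1 they were 0.767%, 0.718% and 1.08% against 2.01% and 1.77%, and for Lamb1 1.46%, 0.645% and 0.657% against 5.42% and 2.01%. All 3 shares were higher in both libraries labelled siZC3H4 without overlap, where that held for 70.0% of all pairs. The uaRNA moved beyond the exon reads by log2 1.88 ± 0.46 SE at Lamb1 and 1.15 ± 0.36 SE at Lamc1, and 2 of 3 passed the limma test of that difference over 5106 pairs (adjusted p of 0.0045 and 0.0161), where 53.9% of pairs rose. At Lama5 it was 0.83 ± 0.36 SE and did not pass (adjusted p = 0.0628), but it passed with a pseudocount of 10, a mean of 50 or more, no trend or siNT replicate 1 left out (limma adjusted p from 0.0272 to 0.04998). With median-of-ratios factors of each table alone, 0 of 3 passed, with log2 1.07 at Lamb1 (limma adjusted p = 0.126), 0.30 at Lamc1 (0.517) and -0.017 at Lama5 (0.975). The calls at Lamb1 and Lamc1 were lost without siZC3H4 replicate 2 (log2 1.18 and 1.05, limma adjusted p of 0.121 and 0.126), and that at Lamc1 also without siZC3H4 replicate 3 (adjusted p = 0.0513).

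Other genes of the basement membrane were taken from a list of 54 by role, of which 39 had an exon row. Of these 0 rose and 0 fell in exon reads by limma, beside 2.22% and 0.144% of all genes. At an unadjusted limma p under 0.05 there were 9, but the share of all genes under that cut was not worked out, so this count has no comparison. With edgeR 0 were called, and DESeq2 called 1, Lamb2 (log2 0.57, adjusted p = 0.0405), which was named after its value was seen. The groups did not overlap for 12 of the 39, 6 higher and 6 lower in the libraries labelled siZC3H4, beside 19.5% and 12.8% of all genes. The median log2 difference of the 39 was 0.03 against 0.01.

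By role, Lamb2, the beta chain gene of neuromuscular and glomerular laminins, had the most reads per kb among the other laminin chain genes examined, 124 ± 19.3 in siNT, and a log2 difference of 0.58 ± 0.16 SE (limma adjusted p = 0.112). Lama3 and Lama4, alpha chain genes named after their values were seen, had log2 0.39 ± 0.14 SE and 0.13 ± 0.34 SE and did not pass either (limma adjusted p of 0.195 and 0.929). None of the 4 other collagen IV genes had a row. The linkers and proteoglycans (5 with a row) had a median of -0.08. The highest per kb was the nidogen gene Nid2 with 1756 ± 153 reads per kb in siNT (log2 -0.08 ± 0.12 SE), above every laminin gene of the 8.

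The other matrix proteins (6 with a row) had a median of -0.35. Among them Fbln1, the fibulin-1 gene and the highest per kb, had log2 -0.28 ± 0.13 SE (limma adjusted p = 0.362). The 13 receptor genes with a row had a median of 0.05 and 9 values above 0. Their highest per kb was Sdc4, a heparan sulfate proteoglycan of the cell surface, at log2 0.46 ± 0.19 SE (limma adjusted p = 0.297). The 11 folding and crosslinking genes had a median of -0.11. P4hb, which encodes protein disulfide isomerase and the beta subunit of prolyl hydroxylase, led them per kb and had log2 -0.39 ± 0.15 SE (limma adjusted p = 0.248).

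**Figure D5:**
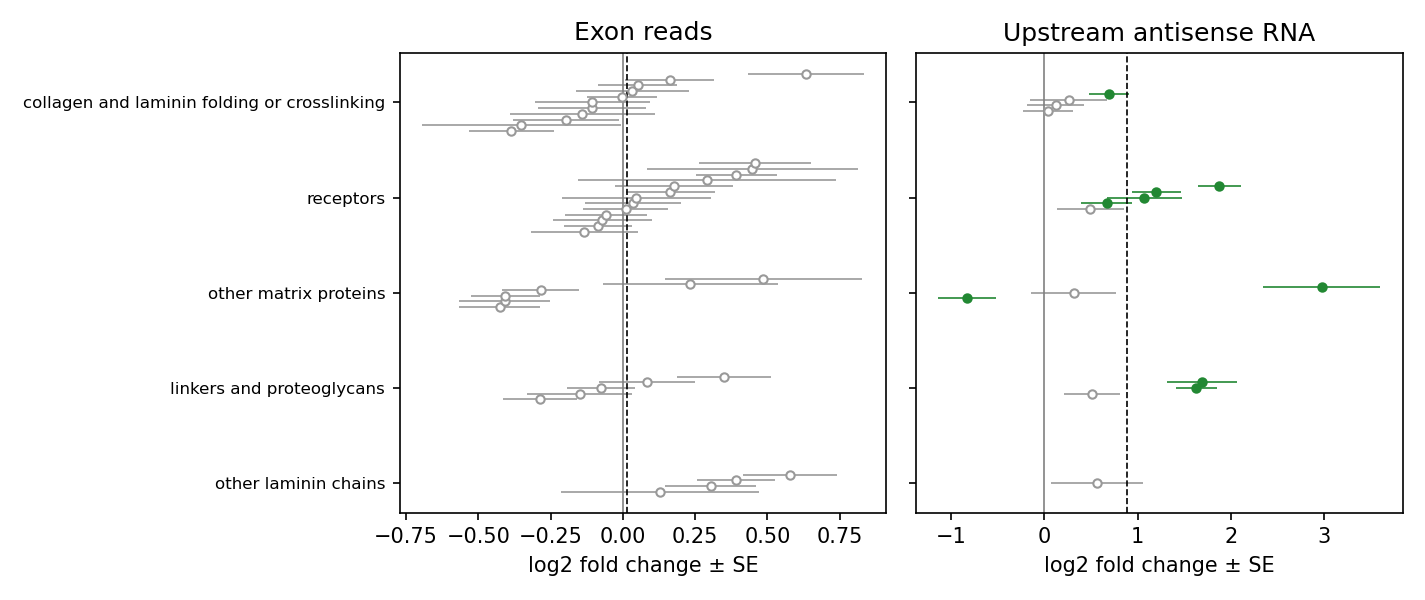
Log2 fold change, libraries labelled siZC3H4 minus siNT, with SE, for the other basement membrane genes by role, exon reads on the left and upstream antisense RNA on the right; filled green points passed the limma threshold and dashed lines are medians of all features tested. No exon value passed, while 8 antisense values passed above 0 and 1 below.

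Of the same list 21 had a uaRNA row and 16 passed the filter, of which 8 rose and 1 fell, beside 62.1% and 1.13% of all uaRNAs. Their median log2 was 0.62 against 0.88. The uaRNA of Bcam, which encodes a receptor for laminins with the LAMA5 chain, rose from 181 ± 13.02 to 665 ± 29.0 normalised reads (log2 1.88 ± 0.23 SE, limma adjusted p = 8.6e-10). That of Nid2 went from 307 ± 66.1 to 942 ± 121 (log2 1.63 ± 0.22 SE, adjusted p of 1.6e-08). The uaRNAs of the perlecan gene Hspg2 and the integrin gene Itgav rose by log2 1.69 ± 0.37 and 1.20 ± 0.26. These 4 calls survived the loss of any 1 library. With the uaRNA table scaled on itself, Bcam and Nid2 still passed (log2 0.99 and 0.74 with the median of ratios), while Hspg2 and Itgav did not with the median of ratios (log2 0.83 and 0.32, limma adjusted p of 0.0769 and 0.284) or TMM. The uaRNA of Tinagl1 rose by log2 2.98 ± 0.63 from 3.00, 0 and 5.97 normalised reads, and passed the filter only through its 23.8 and 22.0 in the libraries labelled siZC3H4.

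Smaller rises, at the uaRNAs of Itga3 (log2 1.07 ± 0.40), P4hb (0.70 ± 0.22) and the dystroglycan gene Dag1 (0.67 ± 0.27), each lost the call without siZC3H4 replicate 2, and those of Itga3 and Dag1 also without 2 other libraries each. The highest limma adjusted p was 0.338, 0.119 and 0.192. None of these 3 passed under either scaling of the uaRNA table on itself, where Itga3 was at log2 0.21 and P4hb and Dag1 lay below 0 at -0.19 and -0.22 with the median of ratios (limma adjusted p of 0.805, 0.540 and 0.490) and at 0.23, -0.17 and -0.20 with TMM. The uaRNA of Fbln1 fell (log2 -0.83 ± 0.31 SE, limma adjusted p = 0.0185) with overlapping groups, 180, 78.3 and 213 normalised reads against 49.8 and 131. That call was lost when siNT replicate 1 or 3, or siZC3H4 replicate 2, was left out (log2 as high as -0.14, limma adjusted p up to 0.790). It was kept with the uaRNA table scaled on itself, at log2 -1.71 with the median of ratios and -1.69 with TMM (limma adjusted p of 0.00995 and 0.0113). The median of ratios moved the median of all uaRNAs from log2 0.88 to 0.0077.

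Genes beside the 8 were examined in the exon table. Of 14 neighbours that are not themselves members, 1 rose and 0 fell, beside 2.22% and 0.144% of all genes. Lama1 is flanked by Ptprm, 343 kb before its start, and Arhgap28, 20.1 kb beyond its end. Their log2 differences were 0.0015 ± 0.28 SE and 0.05 ± 0.16 SE. Adrm1, a proteasome receptor gene, ends 0.087 kb from the end of Lama5 and had log2 0.02 ± 0.11 SE. The neighbour that rose was Shcbp1l, 92.4 kb before the start of Lamc1, from 27.1 ± 6.27 to 75.3 ± 1.66 normalised reads (log2 1.46 ± 0.30 SE, limma adjusted p = 0.0398). It lost the call without siNT replicate 1, siNT replicate 2 or either library labelled siZC3H4, with an adjusted p of up to 0.319.

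Genes whose log2 values over the 5 libraries, each centred on its mean, lay nearest to those of Lama1 were sought among 4036 other genes with a mean of 1000 or more. The nearest by Euclidean distance were the calcium channel gene Itpr1 (0.15), Sipa1l1 (0.19), Anxa6 (0.21), Usp49 (0.22) and Zfp704 (0.22). Their log2 differences lay between -0.51 and -0.36, a range set by the contrast that chose Lama1. Col4a1 and Col4a2 were below a mean of 1000 and were not compared. Among Lama5, Lamb1, Lamc1, Sparc and Fn1, Lamb1 was the nearest to Lama1, 152nd in that order at a distance of 0.39. Lama5 was among the farthest, 3961st at 1.26. These places also hold the contrast that chose Lama1, so they are a description and not a test.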

How the data were processed

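The members and gene lists were chosen with earlier results of these data known. Per the labels' protocols, the pulled-down RNA entered an Illumina TruSeq library preparation that keeps strand. The submitters' processing notes name cutadapt 1.14, STAR, featureCounts, DESeq2 and the builds mm10 and dm6, without roles, settings or the strand option. The authors deposited depth-normalized signal. Each value is whole reads divided by 1 factor per library (siNT 1, 1.15 and 1.172, siZC3H4 1.767 and 1.046, shared by both tables), and 100% of values were whole within 0.01 reads. No source used here says how the factors were obtained.

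Tests ran on log2(value + 1), so changes of low features are understated, with limma 3.58.1 (eBayes with trend) in R 4.3.3. Features with a mean of 10 or more entered (12482 genes, 5124 uaRNAs, 5106 pairs), with Benjamini-Hochberg adjustment over all of them and a call where adjusted p was under 0.05. The verbs rose and fell are kept for called features. The code was tested on simulated data. Genes named were the 8, list genes past the threshold or highest per kb in a role, the nearest neighbours, genes starting within 2 kb on the other strand, and the 5 genes nearest to Lama1. Alternatives were scaling, pseudocount, filter, trend, edgeR 4.0.16 and DESeq2 1.42.0 on recovered reads with the authors' factors, a replicate block, and each library left out. On the recovered reads edgeR called 345 genes higher and 19 lower and DESeq2 584 and 106, beside 277 and 18 with limma. One result on a withheld item is not reported here.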

Additional observations from a re-analysis of the deposited data

How the results depend on the processing

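The number of members called differed from that reported in 1 of 15 alternatives for exon reads, 4 of 15 for uaRNAs and 7 of 11 for uaRNA changes beyond the exon change. With the replicate number as a block, 3 of the 7 members tested in exon reads passed: Lama5 (log2 0.32, limma adjusted p = 0.0174), Lamb1 (-0.46, 2.3e-04) and Sparc (0.28, 0.0378), and so did 11 of the 39 other basement membrane genes. The block raised the calls over all 12482 genes as well, to 1530 higher and 830 lower, from 277 and 18 without it. siNT replicate 1 drops out of that comparison, and its p-values rest almost wholly on the spread borrowed from all genes. Deviations of same-numbered libraries correlated across genes at r = 0.53 and 0.62. The deviations of the 2 libraries labelled siZC3H4 mirror each other, so the differently numbered ones gave -0.53 and -0.62 by construction. For siNT replicate 1 the values were 0.11 and -0.11. With 2 pairs the numbers are not shown to pair the samples. The block kept the calls of the 3 uaRNAs. With the tables scaled on themselves, 0 of 3 uaRNAs passed (median of ratios) and 0 of 3 (TMM). Then 0 of 3 uaRNA changes beyond the exon change passed with the median of ratios, where that of Lama5 was at -0.017.

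Col4a1 turned to -0.026 with the median of ratios and -0.013 with TMM. DESeq2 called 1 of the 39 other genes in exon reads. With each library left out, log2 values ran from -0.22 to 0.25 for Col4a1 and from -0.25 to 0.16 for Col4a2. The number called was 0 of 7 members in exon reads throughout, from 2 to 3 of the uaRNAs, from 0 to 3 of the uaRNA changes beyond the exon change, from 0 to 2 of the 39 other genes (Sdc4 and P4hb without siNT replicate 3) and from 5 to 8 of the 16 other uaRNAs. Over all genes it ran from 2 to 814, so the exon test depends on single libraries. In the libraries labelled siZC3H4, 5 of the 8 genes kept their place in the order of levels, and with each siNT library left out 8 did. Depth limits mainly the Lamb1 uaRNA, with 10 to 17 reads per siNT library.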
